A study of Mus musculus with 16 samples.

Results

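The genes described here are 10 genes of tissue-resident macrophages (*Csf1r*, *Adgre1*, *Cd68*, *Mrc1*, *Cd163*, *Lyve1*, *Folr2*, *C1qa*, *F13a1* and *Cd5l*), taken by their symbols from the 55359 genes counted in whole mouse dorsal skin. The skin came from wild-type C57Bl/6 mice (C57Bl/6N in the text of the study) aged 8 weeks whose hair follicles rested (telogen). The samples fell into 4 groups of 4, namely males and females that were irradiated 3 times with UVB on alternate days, and males and females without UVB. In the text of the study, irradiated skin was taken some hours after the last exposure, so later times are not covered. The labels name no transgene or drug, and genotype, age and tissue were shared by all 4 groups. Mice were shaved and anaesthetised for irradiation in the methods of the study, and whether the controls were handled alike is not given in the sources used here. Polyadenylated RNA was sequenced with a directional kit, and each sample held 16495776 to 33404831 reads on genes. Each sample was 1 mouse, and the p-values measure the spread between mice. Levels are given as TMM-normalised read counts (CPM, counts scaled to a common library size), and a gene is called changed at an edgeR adjusted p under 0.1. All tissue is whole skin, and a level in CPM is a share of all its counted RNA. Fewer macrophages, less RNA of a gene per macrophage and a changed amount of RNA from other cells cannot be told apart.

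Tissue-resident macrophages live for long periods in the dermis, where they clear dead cells, take up modified proteins and lipids and handle iron. They depend on the receptor tyrosine kinase CSF1R, whose ligands are CSF1 and IL34. Their lineage genes are driven by factors such as PU.1 (encoded by *Spi1*) and MAF. Among the 10 genes, *Csf1r*, *Adgre1* (encoding the adhesion receptor F4/80) and *Cd68* (a lysosomal glycoprotein) mark macrophages in general. *Mrc1* (the mannose receptor CD206), *Cd163* (the scavenger receptor for haptoglobin-haemoglobin), *Lyve1* (a hyaluronan receptor) and *Folr2* (folate receptor beta) are surface receptors of resident, often perivascular, macrophages. *C1qa* (a chain of complement C1q), *F13a1* (the A subunit of coagulation factor XIII) and *Cd5l* (the apoptosis inhibitor AIM) encode secreted or released proteins.

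The start regions of *Folr2*, *F13a1*, *Cd68* and *Cd5l* are shown because these 4 genes span the range of responses described here, from the largest falls to *Cd68*, which was called in neither sex. RefSeq promoter windows of build GRCm38.p6, from 250 bases before to 50 bases after an annotated start, were found for 6 of the 10 genes, in 8 entries. Capitals mark GAGGAA, a core of the sites that PU.1 binds, in either direction, so that TTCCTC is the same motif on the other strand.

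Folr2 (first entry, chr7:101857141-101857440, minus strand): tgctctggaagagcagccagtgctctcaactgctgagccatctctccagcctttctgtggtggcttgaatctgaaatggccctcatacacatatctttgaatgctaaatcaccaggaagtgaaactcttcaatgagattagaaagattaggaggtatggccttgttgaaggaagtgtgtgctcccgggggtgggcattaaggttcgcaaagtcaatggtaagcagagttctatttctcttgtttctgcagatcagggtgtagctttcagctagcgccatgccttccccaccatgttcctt

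F13a1 (first entry, chr13:37050195-37050494, minus strand): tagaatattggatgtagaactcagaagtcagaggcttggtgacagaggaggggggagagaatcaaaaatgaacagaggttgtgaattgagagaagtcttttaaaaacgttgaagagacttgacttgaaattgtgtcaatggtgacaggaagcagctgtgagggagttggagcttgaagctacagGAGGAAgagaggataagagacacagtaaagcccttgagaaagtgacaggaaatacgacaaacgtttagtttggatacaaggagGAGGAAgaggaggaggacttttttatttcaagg

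Cd68 (chr11:69666121-69666420, minus strand): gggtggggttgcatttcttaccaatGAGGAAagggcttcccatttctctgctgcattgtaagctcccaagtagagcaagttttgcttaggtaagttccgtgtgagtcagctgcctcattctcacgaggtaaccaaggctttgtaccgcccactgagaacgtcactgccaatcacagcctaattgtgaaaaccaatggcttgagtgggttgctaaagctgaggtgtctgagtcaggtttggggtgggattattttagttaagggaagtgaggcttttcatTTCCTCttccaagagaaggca

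Cd5l (chr3:87357631-87357930, plus strand): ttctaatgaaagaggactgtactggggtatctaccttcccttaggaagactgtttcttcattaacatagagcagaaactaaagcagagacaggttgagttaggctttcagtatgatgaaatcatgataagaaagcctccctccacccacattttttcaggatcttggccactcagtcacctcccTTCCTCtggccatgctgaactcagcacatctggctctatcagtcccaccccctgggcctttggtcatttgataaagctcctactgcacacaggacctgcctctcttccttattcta

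GAGGAA was present in 5 of the 8 windows and in 4 of the 6 genes (*Mrc1*, *F13a1*, *Cd68* and *Cd5l*), against 28.3% of the 32851 promoter windows in the table. The windows of *Folr2* and *Cd163* held no such letters. TGCTGAC, the half-site of MAF proteins, searched on both strands and not overlapping the first motif in its letters, was in none of the 8 windows and in 4.67% of all. These matches describe the letters of the windows only.

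All 10 genes had reads in every mouse. Apart from *Cd5l* they were well expressed, with the lowest value at 29.9 CPM (*Folr2* in a UVB-irradiated male), whereas *Cd5l* itself lay between 0.0934 and 7.83 CPM. Per kilobase of exon, the scale on which levels of different genes can be set side by side, *C1qa* stood highest in no-UVB males at 107 ± 15.5 CPM per kb (mean ± SD, n = 4), followed by *F13a1* at 53.9 ± 8.60. Next came *Folr2* at 43.7 ± 8.90, *Cd163* at 42.2 ± 4.39, *Mrc1* at 41.8 ± 4.09, *Cd68* at 39.5 ± 9.26 and *Csf1r* at 37.9 ± 2.80, and neighbours in this stretch differed by less than their spread. *Adgre1* at 26.2 ± 2.36, *Lyve1* at 15.8 ± 4.50 and *Cd5l* at 0.395 ± 0.207 CPM per kb were the lowest. In no-UVB females *C1qa* was again first at 107 ± 37.9 and *F13a1* next at 52.0 ± 13.9 CPM per kb, and *Adgre1*, *Lyve1* and *Cd5l* were again last in that order. After UVB, *Cd68* took the place behind *C1qa* in both sexes, at 47.7 ± 4.87 CPM per kb in males and 41.2 ± 4.06 in females. Its lead over the gene below it exceeded the spread in males (*F13a1*, 37.7 ± 5.56) but not in females (*Cd163*, 37.8 ± 5.49).

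**Figure D1:**
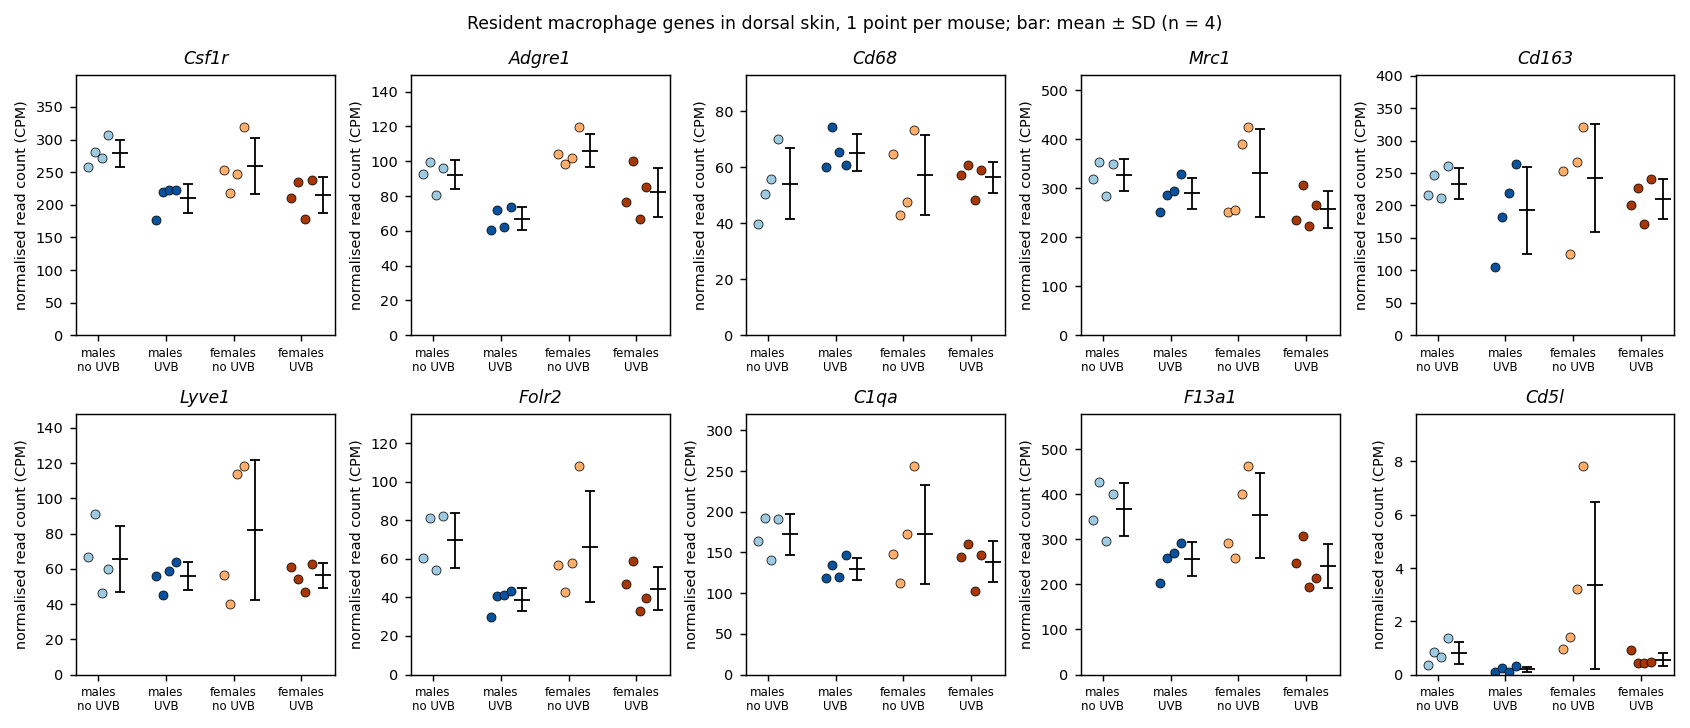
Normalised read counts (CPM, linear axes from 0) of the 10 resident macrophage genes in whole dorsal skin, with 1 point for each of the 16 mice and the mean ± SD of each group of 4. In males the points after UVB lie wholly below those without UVB for Csf1r, Adgre1, Folr2, F13a1 and Cd5l, and in females for Cd5l only.

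The effect of UVB was first examined in males. Of the 9 members that passed the filter on low counts, 5 fell (*Adgre1*, *Csf1r*, *F13a1*, *Folr2* and *C1qa*), 0 rose and 0 fell past 2-fold. Over all 16535 genes tested in males, 30.5% fell, 29.0% rose and 3.31% fell past 2-fold, so that the share of members that fell stood above the share of all genes while the sizes of the falls were modest. The median log2 fold change of the 9 members was -0.39, beside -0.02 for all genes tested. *Cd5l* did not pass the filter in males and is described separately.

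In females, 3 of 10 members fell (*Adgre1*, *F13a1* and *Cd5l*), 0 rose, and *Cd5l* alone fell past 2-fold. Of the 16883 genes tested in females, 10.6% fell, 12.8% rose and 1.08% fell past 2-fold. The median log2 fold change of the 10 members was -0.36, and that of all genes 0.00247. All 10 estimates in females lay below 0, but 7 were not past the threshold. Only *Cd5l* was called in each of the 8 fits that left out 1 female, whereas *Adgre1* and *F13a1* were each lost in 5 of them.

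*Csf1r*, the receptor on which the lineage depends, had levels of 177, 219, 223 and 222 CPM in the 4 UVB-irradiated males and 258, 281, 271 and 306 CPM in the 4 males without UVB. Every irradiated male was below every control. *Csf1r* fell by 23.6% in males (95% confidence interval -32.8 to -13.1%), a log2 fold change of -0.39 ± 0.08 (SE; edgeR adjusted p = 0.00263). In females the levels were 210.0, 235, 178 and 238 CPM after UVB and 253, 218, 247 and 319.8 CPM without it, so that the groups overlapped. The female log2 fold change of -0.26 ± 0.13 was not past the threshold (edgeR adjusted p = 0.215).

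*Adgre1* was the member called in both sexes with the tightest estimates. In males it stood at 60.6, 71.8, 62.2 and 73.7 CPM after UVB and at 92.5, 99.4, 80.4 and 96.1 CPM without UVB, with no overlap. It fell by 26.1% in males, a log2 fold change of -0.44 ± 0.08 (edgeR adjusted p = 0.00107). Female levels were 76.4, 100.1, 66.7 and 85.1 CPM after UVB and 104, 98.3, 102 and 119.8 CPM without UVB. Irradiated female replicate 2 lay within the range of the controls. *Adgre1* fell by 22.1% in females, a log2 fold change of -0.36 ± 0.12 (edgeR adjusted p = 0.0689), and this call was lost without UVB-irradiated female replicate 1, 3 or 4 or without no-UVB female replicate 3 or 4, when the adjusted p reached at most 0.156.

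*Cd68*, the lysosomal marker, was not called in either sex. The irradiated males had 60.0, 74.5, 65.6 and 60.8 CPM and the control males 39.6, 50.6, 55.9 and 70.1 CPM, and the highest control overlapped the irradiated group. The log2 fold change in males was 0.29 ± 0.15 with an edgeR adjusted p of 0.136, and its size depended on single controls. Without no-UVB male replicate 4 it was 0.44 with an adjusted p of 0.0143, and without no-UVB male replicate 1 it was 0.17 with an adjusted p of 0.252. In females the values of 57.3, 60.8, 48.3 and 59.1 CPM after UVB lay within those of 64.9, 42.9, 47.5 and 73.4 CPM without UVB. The female log2 fold change was -0.01 ± 0.16 (edgeR adjusted p = 0.970, 95% confidence interval -0.38 to 0.35).

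Among the surface receptors, *Folr2* fell and *Mrc1*, *Cd163* and *Lyve1* were not called in males. *Folr2* stood at 29.9, 40.9, 41.3 and 43.1 CPM in irradiated males and at 60.7, 81.0, 54.4 and 82.3 CPM in control males, with no overlap. With a fall of 43.5% (95% confidence interval -56.0 to -27.5%), *Folr2* had the most negative log2 fold change of the 9 members tested in males, -0.82 ± 0.16 (edgeR adjusted p = 0.00221). The values of *Folr2* in females were 46.8, 58.6, 33.1 and 39.8 CPM after UVB and 56.7, 42.7, 58.0 and 108 CPM without UVB. They overlapped, and the log2 fold change of -0.56 ± 0.28 was not past the threshold (edgeR adjusted p = 0.204).

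*Mrc1* ranged from 252 to 329 CPM in irradiated males and from 285 to 354 CPM in control males, and from 222 to 307 CPM in irradiated females and from 252 to 426 CPM in control females. Both pairs of groups overlapped. Its log2 fold change was -0.15 ± 0.09 in males (edgeR adjusted p = 0.187) and -0.36 ± 0.19 in females (edgeR adjusted p = 0.237). Leaving out UVB-irradiated male replicate 4 or no-UVB male replicate 3 brought the male value past the threshold, at adjusted p of 0.0800 and 0.0833, whereas without UVB-irradiated male replicate 1 it was -0.08 (adjusted p = 0.462). Without no-UVB female replicate 4 the female value was -0.21 (adjusted p = 0.481).

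*Cd163* had the widest spread of the abundant members in males. The 4 irradiated males had 105, 182, 219 and 264 CPM against 216, 247, 211 and 261 CPM in control males, so that the lowest and the highest of these 8 values were both in the irradiated group. In females it ranged from 171 to 240.0 CPM after UVB and from 125 to 321 CPM without UVB. The log2 fold changes of -0.26 ± 0.25 in males and -0.20 ± 0.25 in females were not past the threshold (edgeR adjusted p = 0.417 and 0.632). Without UVB-irradiated male replicate 1 the male value was -0.05, and without replicate 4 of that group it was -0.44 (adjusted p = 0.759 and 0.161). The female value was -0.41 with an adjusted p of 0.0842 without no-UVB female replicate 2, -0.11 (0.845) without UVB-irradiated female replicate 3 and -0.03 (0.950) without no-UVB female replicate 4.

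*Lyve1* is shared with lymphatic endothelium. It ranged from 45.2 to 63.9 CPM in irradiated males and from 46.1 to 90.9 CPM in control males, and from 47.1 to 62.5 CPM in irradiated females. The 4 control females split into 56.5 and 40.1 CPM and 114 and 118 CPM, which gave this gene its wide female interval. The log2 fold change was -0.21 ± 0.19 in males (edgeR adjusted p = 0.398) and -0.54 ± 0.31 in females (edgeR adjusted p = 0.273). The female value was -0.77 with an adjusted p of 0.0685 without no-UVB replicate 2, and -0.34 and -0.32 (adjusted p = 0.507 and 0.575) without no-UVB replicates 3 and 4. In males it was -0.0021 (adjusted p = 0.991) without no-UVB replicate 2, -0.33 (0.110) without no-UVB replicate 3 and -0.12 (0.660) without UVB-irradiated replicate 2. *Prox1*, the defining transcription factor of lymphatic endothelium, stood at 12.7 ± 1.03 CPM in irradiated and 12.6 ± 1.52 CPM in control males, and at 16.3 ± 1.40 and 14.9 ± 0.625 CPM in females (mean ± SD, n = 4). The 6 lymphatic genes summed to 293 to 314 CPM in irradiated and 309.7 to 386 CPM in control males, and to 344 to 430.1 and 305 to 391 CPM in females. How much of the *Lyve1* reads came from lymphatic vessels was not tested.

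Of the genes for secreted proteins, *C1qa* stood at 118, 134, 119 and 147 CPM in irradiated males and at 164, 192, 140.4 and 192 CPM in control males. Irradiated replicate 4 lay above the lowest control. *C1qa* fell by 23.5% in males, a log2 fold change of -0.39 ± 0.10 (edgeR adjusted p = 0.00999), and the adjusted p was 0.108 when all 16 mice shared a single fit. *C1qb* and *C1qc*, which encode the other chains of C1q and are named here after their values were seen, fell with it in males, with log2 fold changes of -0.36 and -0.29 (adjusted p by edgeR 0.0152 and 0.0241), and *C1qc* likewise was not called in the fit of all mice (adjusted p = 0.124). In females *C1qa* ranged from 102 to 161 CPM after UVB and from 113 to 256 CPM without UVB. The female log2 fold change of -0.31 ± 0.23 was not past the threshold (edgeR adjusted p = 0.410), and it was -0.06 without no-UVB female replicate 4, -0.19 without UVB-irradiated female replicate 3 and -0.47 without no-UVB female replicate 2 (adjusted p = 0.875, 0.683 and 0.186).

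*F13a1*, the member behind *C1qa* per kilobase without UVB, was called in both sexes. In males it stood at 203, 259, 269 and 293 CPM after UVB and at 343, 427, 296 and 399.5 CPM without UVB, with a narrow gap between the groups and no overlap. It fell by 29.1% in males, a log2 fold change of -0.50 ± 0.13 (edgeR adjusted p = 0.00934). The female levels were 246, 307, 195 and 213 CPM after UVB and 292, 259, 400.2 and 462 CPM without UVB. Irradiated female replicate 2 was above 2 of the controls. The female fall of 31.6%, a log2 fold change of -0.55 ± 0.20, was only just past the threshold (edgeR adjusted p = 0.0978), and it was lost without UVB-irradiated female replicate 1, 3 or 4 or without no-UVB female replicate 3 or 4, with adjusted p of up to 0.224.

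*Cd5l*, which some resident macrophages release into blood and tissue, was scarce. In females 18, 12, 10 and 10 reads were counted after UVB and 22, 36, 98 and 155 without it, or 0.926, 0.433, 0.429 and 0.465 CPM against 0.953, 1.43, 3.21 and 7.83 CPM. The groups did not overlap, but the lowest control and the highest irradiated female differed by little, and the controls spanned a wide range. *Cd5l* fell by 83.1% in females (95% confidence interval -94.0 to -52.3%), a log2 fold change of -2.57 ± 0.67 (edgeR adjusted p = 0.0303). Without no-UVB female replicate 4 the log2 fold change was -1.77 (adjusted p = 0.0357), and with every gene of at least 1 count in the test the adjusted p was 0.148.

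In males *Cd5l* had only 3, 4, 2 and 6 reads after UVB and 8, 18, 15 and 24 without UVB, or 0.0934 to 0.313 CPM against 0.373 to 1.38 CPM. The ranges did not overlap. With so few reads it was below the filter of the male test, and a test of all genes that had any count put its log2 fold change at -2.06 ± 0.49 (edgeR adjusted p = 0.00101). Liver makes much *Cd5l*, and of the 4 hepatocyte genes *Alb*, *Apoa1*, *Ttr* and *Serpina1a* only *Alb* passed the filter in either sex, at -0.07 ± 0.26 (males) and 0.50 ± 0.35 (females) on a log2 scale (edgeR adjusted p = 0.851 and 0.371).

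Counted over the members, every irradiated male was below every control male for 5 of the 10 genes (4 of the 9 tested), and 24.3% of all genes tested in males showed this. In females it held for *Cd5l* alone, 1 of 10, against 10.1% of all genes. The female share was thus at the background.

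**Figure D2:**
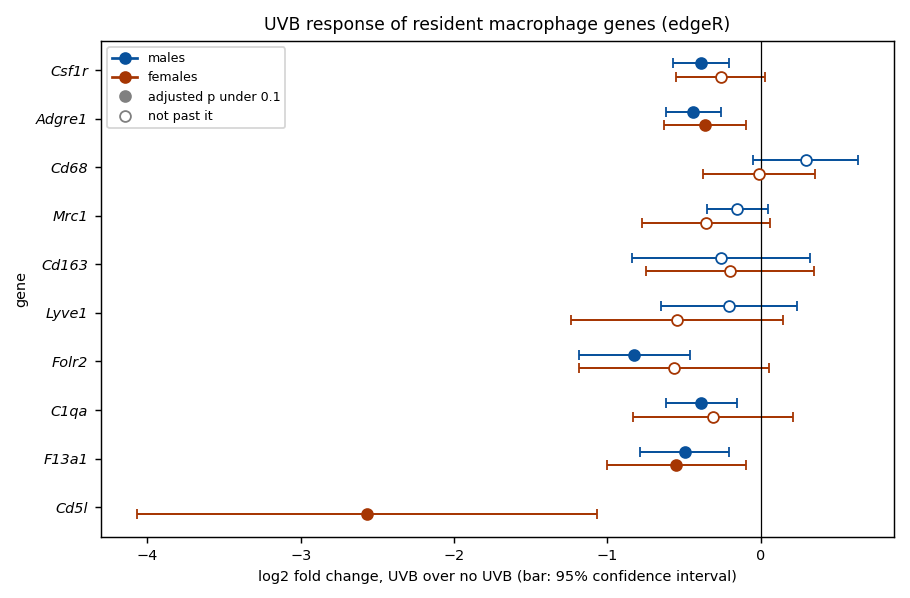
Log2 fold changes of the 10 genes between UVB and no UVB (horizontal axis) in males and females, with 95% confidence intervals from edgeR and filled points for an adjusted p under 0.1. Csf1r, Adgre1, Folr2, C1qa and F13a1 are filled in males and Adgre1, F13a1 and Cd5l in females, Cd5l was not tested in males, and the male and female intervals of each of the 9 other genes overlap.

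Whether the response differed between the sexes was tested as an interaction over all 16 mice. None of the 10 members was called, and 0 of 10 had an unadjusted p under 0.05 in edgeR, while 7.0% of all genes were called in either direction. The male response minus the female response of *Csf1r* was -0.14 on the log2 scale (95% confidence interval -0.49 to 0.20), that of *Adgre1* was -0.09 (-0.42 to 0.24) and that of *Folr2* was -0.28 (-1.04 to 0.49). For *Cd68* it was 0.29 (-0.23 to 0.80). Leaving out 1 mouse at a time moved the estimates, with no call, from -0.24 (without no-UVB female replicate 4) to -0.05 (without no-UVB female replicate 2) for *Csf1r*, from -0.59 to -0.10 without the same mice for *Folr2*, and from 0.16 (without no-UVB male replicate 1) to 0.44 (without no-UVB male replicate 4) for *Cd68*. The intervals of *Csf1r* and *Folr2* reach past the size of their male falls, and the interval of *Cd5l*, from -1.97 to 2.89, leaves its difference all but unknown.

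Between the sexes without UVB, *Cd5l* was the only member called. It was lower in males than in females by a log2 difference of -2.06 ± 0.57 (edgeR adjusted p = 0.0373), and was not called without no-UVB male replicate 1 (-1.82, adjusted p = 0.106). Without no-UVB female replicate 4 the difference was -1.27 (adjusted p = 0.0938). Over all genes 11.8% differed between control males and females. After UVB, *Adgre1* was lower in males by -0.29 ± 0.11 in log2 units (edgeR adjusted p = 0.0760), in a comparison in which 25.2% of all genes differed. That call was lost without UVB-irradiated female replicate 2 or 4 or male replicate 1 or 3, with adjusted p between 0.132 and 0.248. *Cd5l* after UVB, at -1.60 ± 0.85, was not called by edgeR (adjusted p = 0.210) and was called by DESeq2 (adjusted p = 0.0896) and without no-UVB female replicate 4 (adjusted p = 0.0772).

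A ratio of each gene to *Csf1r* within the same mouse does not depend on how libraries are scaled. In irradiated males *Cd68* had log2 ratios of -1.87 to -1.55 to *Csf1r*, and in control males -2.70 to -2.13. All 4 irradiated males were thus above all 4 controls. The geometric mean of *Cd68* was 31.1% of *Csf1r* in read counts after UVB and 19.0% without it, a log2 difference of 0.71. An exact two-sided permutation test over the mice gave p = 0.0286, the smallest that 4 against 4 allow, and 0.129 after adjustment over the 18 tests made. *Mrc1* was higher against *Csf1r* in irradiated males (log2 difference 0.24), and *Folr2* (-0.42) and *Cd5l* (-1.54) were lower, each with the same exact permutation p of 0.0286 and adjusted p of 0.129. With a prior count of 2 or counts without regard to strand, the adjusted permutation p of these 4 ratios was 0.171 or more. *Folr2* then ranged from -0.42 to -0.27 (adjusted permutation p up to 0.343).

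No ratio passed an adjusted p of 0.1, which the design can hardly reach. The ratios of *C1qa* (0.01), *Adgre1* (-0.04), *Cd163* (0.06), *F13a1* (-0.10) and *Lyve1* (0.21) in males had unadjusted p of 0.371 or more in the exact permutation test. Leaving out 1 male moved them from -0.07 to 0.08, -0.10 to 0.02, -0.09 to 0.25, -0.19 to -0.03 and 0.07 to 0.38 in that order. In females the *Cd68* ratio was 0.27 higher and the *Cd5l* ratio 1.88 lower on the log2 scale after UVB, with an exact permutation p of 0.0571 for each. The 7 other female ratios differed by -0.27 to 0.13 with p of at least 0.171.

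**Figure D3:**
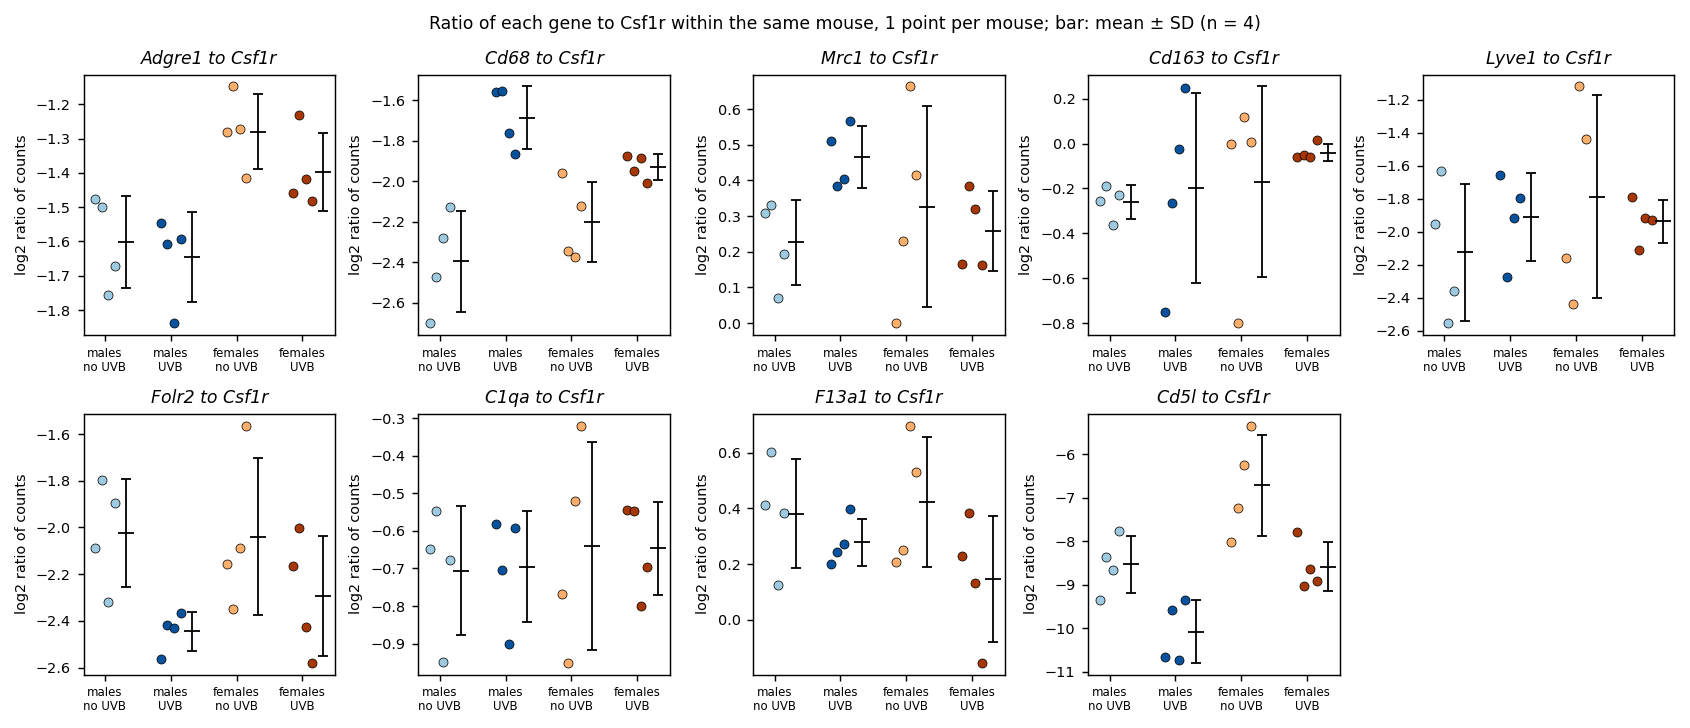
Log2 ratio of read counts of 9 genes to Csf1r within the same mouse (vertical axis), with 1 point for each mouse and the mean ± SD of each group of 4. For Cd68 and Mrc1 the irradiated males lie above all control males and for Folr2 and Cd5l below them, and the C1qa and Adgre1 ratios overlap between irradiated and control mice of each sex.

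The members rose and fell together from mouse to mouse within a group. Summed over the 10 genes, control females had 1481, 1195, 1802 and 2213 CPM and irradiated females 1279.5, 1511, 1064 and 1350.5 CPM, while control males had 1560.4, 1824, 1441 and 1819 CPM and irradiated males 1063, 1313, 1353 and 1497 CPM. No-UVB female replicate 4 was the highest of its group for 10 of 10 genes and UVB-irradiated female replicate 3 the lowest of its group for 10 of 10. UVB-irradiated male replicate 1 was the lowest for 9 of 10. Without no-UVB female replicate 4 the female log2 fold changes were -0.30 for *Adgre1*, -0.40 for *F13a1*, -0.15 for *Csf1r* and -0.23 for *Folr2*.

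As deviations from the group means over the 16 mice, each member was set against the mean of the 10. The Pearson r ran from 0.965 for *C1qa* and 0.951 for *Folr2* down to 0.637 for *Cd68*, and the mean includes the member itself. Among 14964 other genes with a mean of at least 1 CPM, those most like this mean were *Pld4* (r = 0.947), *Rap1b* (0.943), *Ednrb* (0.936), *Cfp* (0.932), *Rgs18* (0.925) and *Dbn1* (0.920). *Cfp* encodes properdin of the complement system, and *Pld4* an endolysosomal exonuclease of myeloid cells. *Rap1b*, *Ednrb*, *Rgs18* and *Dbn1* are not described here as macrophage genes, and likeness of this kind does not place a gene in macrophages. These correlations are across libraries that share depth and dissection, and no test was made.

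Of 30 other genes of tissue-resident and dermal macrophages, 15 fell and 7 rose in males, where 30.5% of all genes tested fell and 29.0% rose. The median log2 fold change of the 30 was -0.18, beside -0.02 for all genes. *Ltc4s*, the leukotriene C4 synthase, went from 7.46 to 8.72 CPM in control males to 3.06 to 4.86 CPM in irradiated males, a log2 fold change of -0.94 ± 0.14 (edgeR adjusted p = 0.000239). *Gas6*, a bridge between dying cells and the receptors AXL and MERTK, fell by 0.49 ± 0.08 on the log2 scale (adjusted p = 0.00045). *Timd4*, a receptor for phosphatidylserine, *Retnla* and *Ear2*, named here after their values were seen, were the 3 that fell past 2-fold in males, with log2 fold changes of -1.24, -1.34 and -1.21 (adjusted p by edgeR 0.000964, 0.00515 and 0.00131). *Retnla* and *Ear2* together serve in the paper as markers of early-stage macrophages, so the list is not confined to resident cells.

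The genes that rose included the scavenger receptor *Msr1*, from 11.4 to 13.9 CPM in control males to 19.6 to 29.3 CPM in irradiated males, and the iron exporter *Slc40a1*, from 22.5 to 31.6 CPM to 38.2 to 47.6 CPM. Neither overlapped between groups. Their log2 fold changes were 0.92 ± 0.13 and 0.71 ± 0.12 (edgeR adjusted p = 0.000133 and 0.000729). In a single fit of all 16 mice the number of the 30 that fell in males was 8, while 5212 of all 17406 genes tested fell, so that the list did not stand above all genes in that fit.

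In females 2 of the 30 fell and 1 rose, both below the shares of all genes tested (10.6% and 12.8%). *Siglec1*, which encodes the sialic acid receptor CD169, had a log2 fold change of -1.12 ± 0.38, *Timd4* had -0.95 ± 0.34 and *Slc40a1* had 0.31 ± 0.11 (edgeR adjusted p = 0.0788, 0.0911 and 0.0828). The calls depended on single mice. The number that fell was 0 without UVB-irradiated female replicate 1, 3 or 4 or no-UVB female replicate 3 or 4, 1 without UVB-irradiated female replicate 2, and 6 and 5 without no-UVB female replicates 1 and 2. The rise of *Slc40a1* was lost in 6 of these 8 fits (adjusted p up to 0.202).

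**Figure D4:**
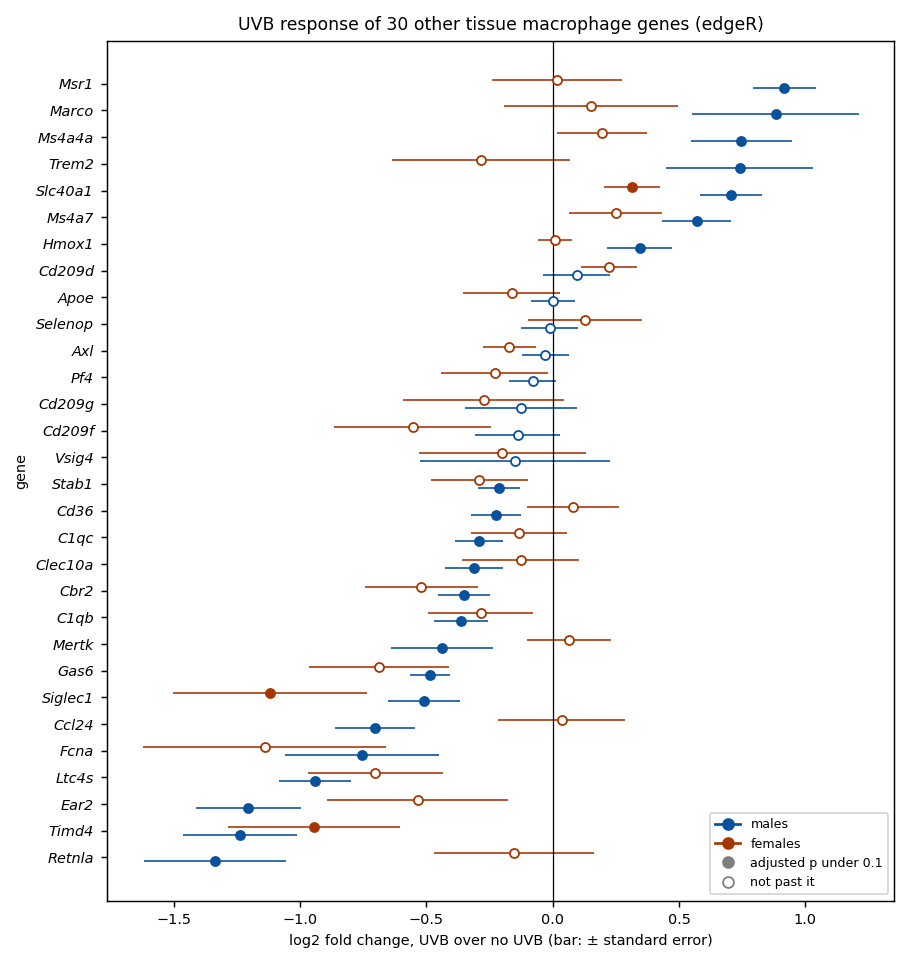
Log2 fold changes between UVB and no UVB (horizontal axis, ± SE from edgeR) of 30 further genes of tissue-resident and dermal macrophages in males and females, ordered by the male value, with filled points for an adjusted p under 0.1. In males 15 genes are filled below 0, with Retnla lowest at -1.34, and 7 above 0, with Msr1 highest at 0.92, and in females 2 are filled below and 1 above 0.

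Of the ligands of CSF1R, *Il34*, which keratinocytes make, fell in both sexes. It was at 40.5 to 44.1 CPM in control males and 21.0 to 25.7 CPM in irradiated males, and at 37.5 to 43.0 CPM and 23.5 to 32.7 CPM in females. The log2 fold change was -0.87 ± 0.07 in males and -0.51 ± 0.10 in females (edgeR adjusted p = 3.9e-06 and 0.0065). *Csf1* fell in males, from 78.7 to 88.1 CPM to 56.5 to 67.6 CPM (log2 fold change -0.45 ± 0.07, edgeR adjusted p = 0.000198), and had a log2 fold change of -0.55 ± 0.22 in females (adjusted p = 0.123).

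Over the 12 genes of this axis and of lineage transcription factors, 4 rose and 3 fell in males, and 2 rose and 1 fell in females. These counts stood near the shares of all genes (29.0% rose and 30.5% fell in males, 12.8% and 10.6% in females). *Cebpa*, a myeloid transcription factor that keratinocytes also use, rose by 0.31 ± 0.06 on the log2 scale in males and 0.29 ± 0.09 in females (adjusted p by edgeR 0.00164 and 0.064). *Tfec* rose by 0.70 ± 0.18 in males (adjusted p = 0.00694) and *Cebpb* by 0.33 ± 0.13 in males and 0.31 ± 0.07 in females (adjusted p = 0.054 and 0.0199). The male call of *Cebpb* was lost without UVB-irradiated male replicate 1 or 3 or no-UVB male replicate 2 or 4 (adjusted p up to 0.133) and with every gene of at least 1 count (0.129), and the female call of *Cebpa* without UVB-irradiated female replicate 1 or 4 or no-UVB female replicate 1 or 3 (up to 0.144). The factors *Spi1* (0.15 and -0.05) and *Maf* (-0.09 and -0.12, log2 fold changes in males and females) were not called in either sex.

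Markers of other cells moved in the same libraries, and their part in the results above was not tested. The counts of each list are to be read against all genes tested, of which 29.0% rose and 30.5% fell in males and 12.8% rose and 10.6% fell in females. Among 16 genes shared by most myeloid cells or leukocytes, 4 rose and 2 fell in males and 0 rose and 3 fell in females, and their sums overlapped, at 1599.9 to 1910.3 CPM in irradiated and 1537 to 2035 CPM in control males and 1511 to 2090.5 against 1698 to 2343 CPM in females. *Ptprc*, the leukocyte antigen CD45, fell by 0.37 ± 0.09 in males and 0.46 ± 0.08 in females in log2 units (edgeR adjusted p = 0.00496 and 0.00502). *Cx3cr1* fell by 0.49 ± 0.17 and 0.39 ± 0.13 (adjusted p = 0.0303 and 0.0775), and *Fcgr1*, the high-affinity IgG receptor, rose by 0.47 ± 0.15 in males (adjusted p = 0.022). The female call of *Cx3cr1* was lost in 6 of the 8 fits that left out 1 female, all but those without UVB-irradiated replicate 4 or no-UVB replicate 3 (adjusted p up to 0.167), and with the replicate block (0.122) or every gene of at least 1 count (0.121). The male call of *Fcgr1* was lost in the single fit of all mice (adjusted p = 0.266).

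Genes of monocytes and inflammatory macrophages rose for 9 and fell for 1 of 14 tested in males, and rose for 3 and fell for 1 of 15 in females, beside 29.0% and 30.5% of all genes in males and 12.8% and 10.6% in females. The fall in each sex was that of *Thbs1*. It was lost in 7 of the 8 fits without 1 male and 4 of the 8 without 1 female (edgeR adjusted p up to 0.212 and 0.181). *Clec4e*, a pattern recognition receptor, rose by 2.98 ± 0.37 (log2) in males and 1.90 ± 0.40 in females (edgeR adjusted p = 6.82e-05 and 0.0117), and *Il1b* by 1.61 ± 0.22 and 1.03 ± 0.23 (adjusted p = 0.000127 and 0.0142). The summed level of this list did not separate the groups, at 284 to 306 CPM in irradiated and 271 to 324 CPM in control males and at 246 to 334 and 302 to 391 CPM in females. *Ly6g*, a defining neutrophil gene, was at 0 reads in both male groups and in irradiated females. Neutrophil genes summed to 63.1 to 170.1 CPM in irradiated and 35.9 to 40.0 CPM in control males, with 5 of 7 tested genes up and 1 down, and to 34.8 to 40.5 and 33.5 to 46.4 CPM in females, with 2 of 6 up and 1 down. *Cxcr2* had the smallest adjusted p of this list in both sexes, with log2 rises of 3.63 ± 0.20 and 2.80 ± 0.26 (edgeR adjusted p = 4.74e-07 and 0.000187), while *S100a9* had a larger rise in males (4.55 ± 0.54, adjusted p = 0.000385).

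Langerhans and dendritic cell genes fell for 10 of 12 in males and 2 of 12 in females, with sums of 1727 to 2348 CPM in irradiated against 2756 to 3591 CPM in control males and of 2880 to 3731 against 3085 to 4474 CPM in females. *Cd74* fell by 0.74 ± 0.10 in males (edgeR adjusted p = 0.000148) and *Flt3* by 0.73 ± 0.14 in females (adjusted p = 0.00741), both on the log2 scale. The list includes *H2-Aa*, which the paper also uses as a marker of phagocytic macrophages. Of the 2 female calls, *Cd209a* was lost in 5 of the 8 fits without 1 female (edgeR adjusted p up to 0.168). T cell genes fell for 8 and rose for 1 of 9 in males and fell for 3 of 9 in females. Of those 3, *Cd3g* was lost in 5 of the 8 fits without 1 female and *Cd3e* in 1 (edgeR adjusted p up to 0.174). Mast cell genes rose for 2 and fell for 1 of 6 in males and rose for 4 of 6 in females. Of those 4, *Cma1* and *Mcpt4* were each lost in 6 of the 8 fits without 1 female, *Cpa3* in 3 and *Ms4a2* in 1 (adjusted p up to 0.177). Lymphatic endothelial genes rose for 0 and fell for 2 of 6 in males and rose for 1 and fell for 1 of 6 in females, and no gene of 6 for blood endothelium was called in either sex. The female rise of *Flt4* was lost in 6 and the female fall of *Reln* in 5 of the 8 fits without 1 female (edgeR adjusted p up to 0.202). The male fall of *Mmrn1* was lost in 2 of the 8 fits without 1 male. Of all genes tested, 29.0% rose and 30.5% fell in males and 12.8% and 10.6% in females, and the mast cell rises and lymphatic falls in males were near these shares.

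Of 7 fibroblast genes, 6 fell in males and 1 rose and 1 fell in females, and of 7 keratinocyte genes, *Krt6b* and *Krt16* among them, 6 rose in both sexes. Fibroblast genes, chiefly collagens, summed to 28753 to 39690 CPM in irradiated and 79632 to 86883 CPM in control males, and keratinocyte genes to 23464 to 34416 against 7396 to 12057 CPM. In females the fibroblast sums were 12655 to 22538 CPM after UVB and 19755 to 21021 CPM without it, and the keratinocyte sums 11377 to 14866 against 6336 to 9797 CPM. Adipocyte genes fell for 5 of 7 and skeletal muscle genes for 5 of 6 in males, and none of either list was called in females. The shares of all genes were 30.5% fallen and 29.0% risen in males and 10.6% and 12.8% in females. With the 100 most abundant genes left out of the scaling, the 5 male falls of *Csf1r*, *Adgre1*, *Folr2*, *C1qa* and *F13a1* had log2 fold changes of -0.38, -0.43, -0.81, -0.38 and -0.48 and edgeR adjusted p of 0.00304, 0.00123, 0.00237, 0.0115 and 0.0104.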

How the data were processed

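The authors aligned the reads with STAR to GRCm39, whose gene counter gave the deposited values: whole-number counts per gene and sample, without normalization, of which the count on the strand of the directional kit was used here (the other strand held 3.63 to 4.23% of the gene reads). The version of STAR is not given in the sources used here. Reads on genes were 70.08 to 79.22% of each library, and reads that map to several places were listed as 0. GENCODE M39 gave symbols and exon lengths for 54749 of 55359 identifiers. Exons of the 10 genes shared no base with another gene of the same strand. Within groups, pairs of libraries differed by more than sampling noise (chi-square per degree of freedom 9.54 to 98.3).

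The statistics used edgeR 4.0.16 in R 4.3.3 (filterByExpr, TMM, robust quasi-likelihood test, Benjamini-Hochberg adjustment over all genes tested), with 4 UVB against 4 no-UVB samples of each sex in a fit of its own and all 16 samples for comparisons between the sexes, without covariates. DESeq2 1.42.0, scaling, filtering, strand, the replicate number as a block, a single fit of all samples and leaving out each sample were alternatives. Log2 ratios to *Csf1r* had a prior count of 0.5. The procedure was tested on simulated data. The paper's methods used DESeq2 at an adjusted p of 0.1 and a shrunken log2 fold change past 1.

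All 10 members are named, and of each other list genes among the 4 with the smallest adjusted p of those called, and the 6 genes most like the members. *Spi1*, *Maf*, *Prox1*, *Ly6g* and the hepatocyte genes, of which none was called between UVB and no UVB in either sex, are named outside this rule as defining genes of their cells. The members, the 16 lists of 168 genes, the tests and this rule were chosen with earlier results of these data known. Motifs were searched in RefSeq promoter windows. Plots were made in Python 3.11.15 with matplotlib 3.10.9.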

Additional observations from a re-analysis of the deposited data

Results flagged for a closer look

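Each of the 10 genes was examined in each of the 4 groups, 40 sets of 4 mice, for a mouse far from the other 3 by Dixon's test, which flags about 1 in 20 sets by chance, and 3 were found. *Csf1r* in UVB-irradiated male replicate 1 was at 177 CPM and in the other 3 irradiated males at 219 to 223 CPM. *Folr2* in the same mouse was at 29.9 CPM and in the others at 40.9 to 43.1 CPM. *Cd5l* in UVB-irradiated female replicate 1 was at 0.926 CPM, from 18 reads, and in the other 3 irradiated females at 0.429 to 0.465 CPM. Without male replicate 1 the male log2 fold changes were -0.31 for *Csf1r* and -0.71 for *Folr2* (edgeR adjusted p = 0.00526 and 0.00367).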

How the results depend on the processing

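The 5 falls in males held their direction and call in all 8 fits without 1 male and in the 8 other alternatives, except *C1qa* in the single fit of all mice. The number of members lower in females was 1 with every gene of at least 1 count (2 with the replicate block and 3 in the 6 others), where *Cd5l* and *F13a1* had adjusted p of 0.148 and 0.277. Other macrophage genes lower in males numbered 8 in the single fit of all mice and 12 to 15 in the 7 others. Those lower in females, 2 as reported, numbered 0 with every gene of at least 1 count, 6 in the single fit, 5 by DESeq2, and 2 or 3 with the other scalings, strand and stricter filter. Members lower in males than in females after UVB numbered 2 by DESeq2 and 1 as reported. The cause of these changes was not tested.

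Replicate numbers did not pair the mice: deviations of same-numbered mice correlated at -0.073 to 0.022 in males and -0.115 to 0.217 in females, and 4 of 16 mice correlated best with their own number. With the replicate number as a block, 1 member (*Cd68*) was called higher in males, 1 other macrophage gene lower in females, and *F13a1* in females had an adjusted p of 0.180. *Cd68* in females then had a log2 fold change of 0.015 and *C1qa* in control males against control females 0.015, both of changed sign. The sign of *Lyve1* after UVB, males against females, also changed, to 0.0196 with DESeq2's size factors, 0.019 with scaling without the 100 most abundant genes and 0.0194 with DESeq2's test.

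Leaving out each mouse in turn gave 0 to 1 members higher and 5 to 7 lower in males, and 0 higher and 1 to 5 lower in females. Other macrophage genes numbered 4 to 7 higher and 10 to 15 lower in males, and 0 to 1 higher and 0 to 6 lower in females. Members lower in males than females numbered 0 to 1 without UVB and 0 to 2 after UVB, and no interaction was called. Signs changed for uncalled values. *Cd68* in females ranged from -0.13 to 0.13. The interaction ranged from -0.16 to 0.0196 for *Adgre1*, -0.27 to 0.15 for *Cd163*, -0.10 to 0.18 for *F13a1*, -0.33 to 0.0783 for *C1qa* and -0.33 to 0.81 for *Cd5l*. Males against females without UVB ranged from -0.14 to 0.10 for *Mrc1*, -0.28 to 0.10 for *Cd163*, -0.088 to 0.19 for *F13a1*, -0.11 to 0.38 for *Folr2*, -0.17 to 0.23 for *C1qa* and -0.23 to 0.0442 for *Cd68*, and after UVB from -0.12 to 0.0399 for *Csf1r*, -0.31 to 0.082 for *Cd163* and -0.0786 to 0.0864 for *Lyve1*.

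Over all genes, 478 genes had a higher and 740 a lower response in males by the interaction, against 687 and 641 with DESeq2's size factors, 782 and 624 without the 100 most abundant genes in the scaling, 1068 and 907 by DESeq2, and 229 and 495 with every gene of at least 1 count. Scaling moved the median of all genes by less than 0.1 on the log2 scale. *Cd5l* in males is limited by depth, with at most 24 reads in a mouse.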
